A study of Saccharomyces cerevisiae with 28 samples.

Results

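The ist3 deletion strain was compared with the isy1 deletion strain of budding yeast on splicing microarrays, through the log ratio of each mutant to its own wild type. The comparison rests on 4 of the 28 arrays of the study, 2 for ist3 and 2 for isy1, and covers all 982 genes named on the array and 1456 of their probes. The 4 arrays were picked by their labels, with earlier results of these data known. Both strains were sampled in log phase growth at 30 °C, at steady state. The difference was taken as ist3 minus isy1 within the same dye orientation. In the whole study 8 deletion strains were set against wild type in 14 conditions, each on a pair of arrays with swapped dyes. Log phase was also used for csn12, YPR045C, csn9 and pci8. For tgs1 and ynr004w the labels give a start at 30 °C (0 min) and a cold shift to 16 °C, followed for 10, 25 and 40 min. Ranges given below for the other 12 conditions therefore include cold-shifted cells. The second channel of the ist3 arrays is labelled wt and that of the isy1 arrays is labelled as the matched WT for isy1, so every value below is a ratio to a wild type that the labels give separately for each strain. The sources used here do not state the strain background, the mating type, or whether the arrays of a swapped pair held the same RNA.

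Introns of yeast pre-mRNA are removed by the spliceosome, which is assembled on the transcript from snRNPs (small nuclear RNAs with their proteins) and then activated by RNA helicases and the Prp19-associated complex. Ist3 (also called Snu17) belongs to the RES complex, which joins the spliceosome before activation and is known for helping the splicing of particular pre-mRNAs and for retaining unspliced RNA in the nucleus. Isy1 joins with the Prp19-associated proteins and acts around the first catalytic step, at the stage where the helicase Prp16 works. Neither protein is essential, so deletion strains can be grown and their RNA compared. Splicing arrays hold separate probes for different stretches of an intron-containing gene, so that unspliced and spliced RNA can weigh differently on its probes.

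Each array carried 9216 spots with 6 spots per probe, and 9059 to 9199 spots had a value on these 4 arrays. A gene's value is the mean log2 ratio over its probes. Values are given in the order of the array with the mutant in Cy5, called replicate 1, and the array with the mutant in Cy3, called replicate 2. The deposited table does not state log base or direction, so log2 of mutant over wild type is the likely reading and not a settled one. Over the 982 genes the 2 ist3 arrays correlated with r = -0.04 and the 2 isy1 arrays with r = 0.23, whereas ist3 and isy1 arrays of the same dye orientation correlated with r = 0.18 in Cy5 and 0.35 in Cy3, and those of opposite orientation with r = -0.20 and -0.40. The ist3 minus isy1 differences of the 2 orientations correlated with r = 0.51, which is a description across genes from arrays that share a dye. Over the 965 genes outside the mating-type and pheromone lists used below, the 2 ist3 arrays correlated with r = -0.34. Over the same genes the 2 isy1 arrays correlated with r = 0.23 and the differences with r = 0.42. Single-probe values did not check the labels, since IST3 read 0.63 and -0.32 on the ist3 arrays and 0.26 and -0.05 on the isy1 arrays, and ISY1 read -0.11 and -0.10 against -0.15 and -0.10. The array numbers in the titles share one start for both ist3 arrays and another for both isy1 arrays, so strain and array set cannot be told apart.

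Of the 982 genes, 108 differed between ist3 and isy1 (11% of genes tested, limma adjusted p under 0.05), 47 higher in ist3 (4.79%) and 61 lower in ist3 (6.21%). Higher and lower always refer to the ratio of ist3 to its wild type, set against the ratio of isy1 to its own. All 108 differences had one sign in both dye orientations, and in 101 of them the arrays of the strains did not overlap. Both counts only describe the called genes, since the same arrays were used to call them. With the arrays centred on the genes with 1 probe, 70 genes were higher and 48 lower. Separation of the arrays was found for 277 of all genes (28.2%). Leaving out isy1 replicate 1 left 57 called genes, 21 higher and 36 lower, and 33 of the 108 stayed called whichever of the 4 arrays was left out. Standard errors here and below rest on a spread that limma estimated over all 28 arrays, most of them of other strains, and not on the 4 arrays alone. The median standard error of a difference was 0.21 over all genes. The 916 protein-coding genes gave 47 higher and 44 lower, while the 64 tRNA genes gave 0 higher and 17 lower.

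The difference could come from either strain. Against wild type, 76 genes were called in ist3 (7.74% of genes, 48 up, 4.89%, and 28 down, 2.85%) and 95 in isy1 (9.67%, 61 up, 6.21%, and 34 down, 3.46%). Of the 108 genes that differed between the strains, 37 were apart from wild type in ist3 but not called in isy1, 49 in isy1 but not called in ist3, 10 in both and 12 in neither. The ist3 count fell to 21 without ist3 replicate 2 and to 46 without ist3 replicate 1, and the isy1 count fell to 33 without isy1 replicate 1.

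**Figure D1:**
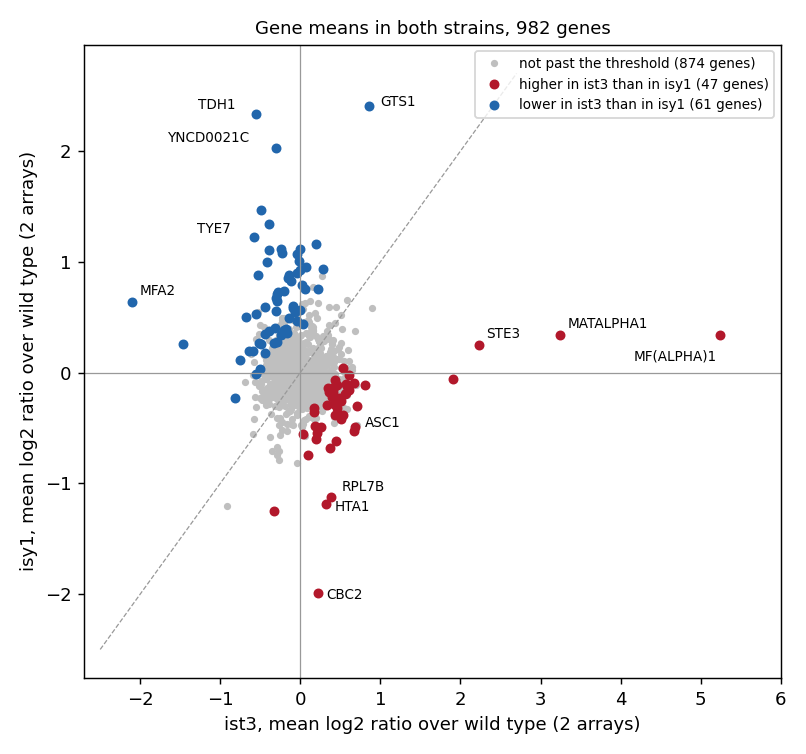
Mean log2 ratio to wild type of 982 genes in ist3 (horizontal axis) and isy1 (vertical axis), one point per gene, with the 108 genes called between the strains coloured by direction. MF(ALPHA)1 lies furthest right on the ist3 axis and MFA2 furthest left, and TDH1 and GTS1 lie highest on the isy1 axis.

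The genes furthest apart included pheromone genes, the glycolytic gene TDH1, the cap-binding gene CBC2 and several tRNA genes. MF(ALPHA)1, which encodes the alpha-factor pheromone, had log2 ratios of 4.91 and 5.57 in ist3, against 0.30 and 0.37 in isy1. TDH1, which encodes a glyceraldehyde-3-phosphate dehydrogenase, had -1.15 and 0.03 in ist3, against 2.31 and 2.35 in isy1. The tRNA gene YNCD0021C had -0.63 and 0.02 in ist3, against 1.95 and 2.10 in isy1. In none of these 3 genes did the arrays of the strains overlap, and the differences were 4.90 ± 0.38 for MF(ALPHA)1 (SE, n = 2 arrays each, limma adjusted p = 1.16e-07), -2.89 ± 0.31 for TDH1 (adjusted p = 4.62e-06) and -2.33 ± 0.24 for YNCD0021C (adjusted p = 1.88e-06). TDH1 ranged from -1.72 to 0.35 over the other 12 conditions and YNCD0021C from -1.30 to 0.20, below the isy1 mean of each.

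**Figure D2:**
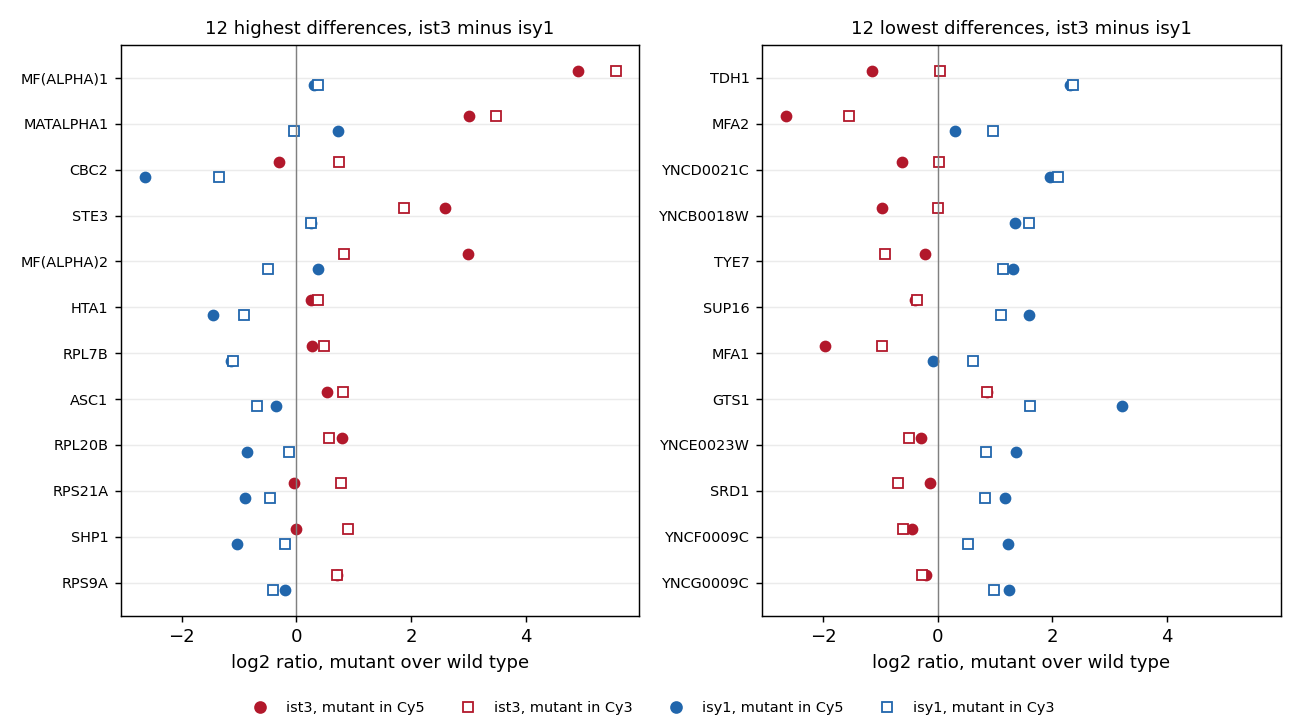
Log2 ratio to wild type on each of the 4 arrays for the genes with the highest and the lowest called differences, ist3 arrays beside isy1 arrays. In CBC2, HTA1 and RPL7B the isy1 points lie below 0, and in TDH1, YNCD0021C and YNCB0018W the isy1 points lie above 1.

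Genes of the splicing machinery itself were counted next, beside 4.79% higher and 6.21% lower over all genes. Lists here and below were chosen with earlier results of these data known, so their shares only describe the listed genes. Of 28 measured genes of the RES and Prp19-associated complexes 0 were higher and 1 was lower, with a median of -0.04, against -0.02 over all genes. The lower member was CDC40, which encodes the second-step factor Prp17, with log2 ratios of -0.26 and 0.38 in ist3, against 0.53 and 0.98 in isy1. The arrays of the strains did not overlap, and the difference was -0.69 ± 0.14 (SE, n = 2 arrays each, adjusted p = 0.00359). The next largest differences in that list were -0.47 for SYF2 (adjusted p = 0.48) and -0.41 for BUD31 (adjusted p = 0.0722). Among 51 snRNP and cap-binding genes 2 were higher and 2 lower, with a median of 0.04, which is near the shares over all genes.

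CBC2, the gene of the small cap-binding subunit in the nucleus, had log2 ratios of -0.30 and 0.74 in ist3, against -2.64 and -1.34 in isy1. Both isy1 arrays were far below both ist3 arrays, and the difference was 2.21 ± 0.33 (SE, n = 2 arrays each, adjusted p = 0.000148). Over the other 12 conditions CBC2 stayed between -0.22 and 0.25. SMD1, which encodes a core Sm protein of the snRNPs, read 0.03 and 0.39 in ist3, against -0.89 and -0.20 in isy1, a difference of 0.75 ± 0.15 that was not called without isy1 replicate 1. In the opposite direction, DIB1 (a U4/U6.U5 tri-snRNP protein) differed by -0.59 ± 0.15 and SME1 (another Sm protein) by -0.58 ± 0.14. DIB1 lost its call without ist3 replicate 2 or isy1 replicate 2, and SME1 lost it whichever of the 4 arrays was left out.

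Among the 8 spliceosomal helicase genes 1 was higher, SUB2, which acts in spliceosome assembly and mRNA export and is also in the export list. SUB2 read 0.12 and 0.66 in ist3, against -0.36 and -0.08 in isy1, and the difference was 0.61 (adjusted p = 0.00669), lost without ist3 replicate 2. It was the 1 called gene of 15 export genes. Of 33 RNA decay genes 1 was higher and 2 were lower, with a median of 0.16. Its higher member was MTR4, the helicase of the nuclear exosome cofactor TRAMP, at 0.78 (adjusted p = 0.00923), a call that held only without isy1 replicate 2. The lower members were CCR4, a catalytic subunit of the main deadenylase, at -0.58 (adjusted p = 0.00398), and AIR2, a zinc-knuckle protein of TRAMP, at -0.57 (adjusted p = 0.0453), which held its call only without ist3 replicate 1. The called shares of the export and decay lists were near those over all genes. CCR4, AIR2 and AAR2 were chosen after their values were seen. AAR2, an assembly factor of the U5 snRNP, differed by -0.54 (adjusted p = 0.0281), a call that held only without isy1 replicate 1.

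Probes within a gene were then compared, because a loss of splicing can shift the probes of a gene apart. For 219 genes with 3 linked probes the array layout gave 3 classes, A, B and C. The sources used here do not state which class reads the intron, the splice junction or an exon. The class contrast is the class A log ratio minus the mean of classes B and C in the same gene.

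Class A probes lay above the other classes in both mutants, and further in ist3. Median class A log2 ratios were 0.34 in ist3 and 0.11 in isy1, median class B ratios were -0.12 and -0.17, and median class C ratios were -0.22 and -0.20 in the same order. The median contrast of an array was 0.72 and 0.57 on the ist3 arrays, against 0.39 and 0.34 on the isy1 arrays, so the arrays of the strains did not overlap. As the mean of its 2 arrays this median was 0.64 for ist3 and 0.37 for isy1, and it ran between -0.11 and 0.51 in the other 12 conditions. The arrays of those 12 conditions also set which side is class A, so their range is not an independent comparison. By single arrays the ist3 Cy3 array (0.57) was below 3 Cy3 arrays of cold-shifted strains, at 0.61 and 0.68 for tgs1 and 0.571 for ynr004w. Against wild type the contrast was up in 115 genes in ist3 (52.5% of genes tested) and down in 1 (0.457%), which makes 53% called, and it was up in 70 genes in isy1 (32%) and down in 2 (0.913%), which makes 32.9% called.

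Between the strains the contrast differed in 51 of 219 genes (23.3%, limma adjusted p under 0.05), 40 higher in ist3 (18.3%) and 11 lower (5.02%). The median difference was 0.13, and 131 of the 219 genes lay above 0. Across the 219 genes the contrasts of the 2 ist3 arrays correlated with r = 0.07 and those of the 2 isy1 arrays with r = 0.38. With the arrays scaled to one spread the split was 17 higher and 9 lower. Without isy1 replicate 2 the count was 14 higher and 7 lower, and without ist3 replicate 1 it was 18 higher and 11 lower. Of the 51 genes, 15 stayed called whichever of the 4 arrays was left out, 11 higher and 4 lower. A contrast up in both strains was found for 55 genes, 47.8% of those up in ist3 and 78.6% of those up in isy1. Over all 219 genes it was up in 32% in isy1 and in 52.5% in ist3. In 44 of these 55 genes the difference between the strains was not called, in 5 it was higher in ist3 and in 6 lower. A further 33 genes were up in ist3, not called in isy1 and higher in ist3 by the test of the difference.

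**Figure D3:**
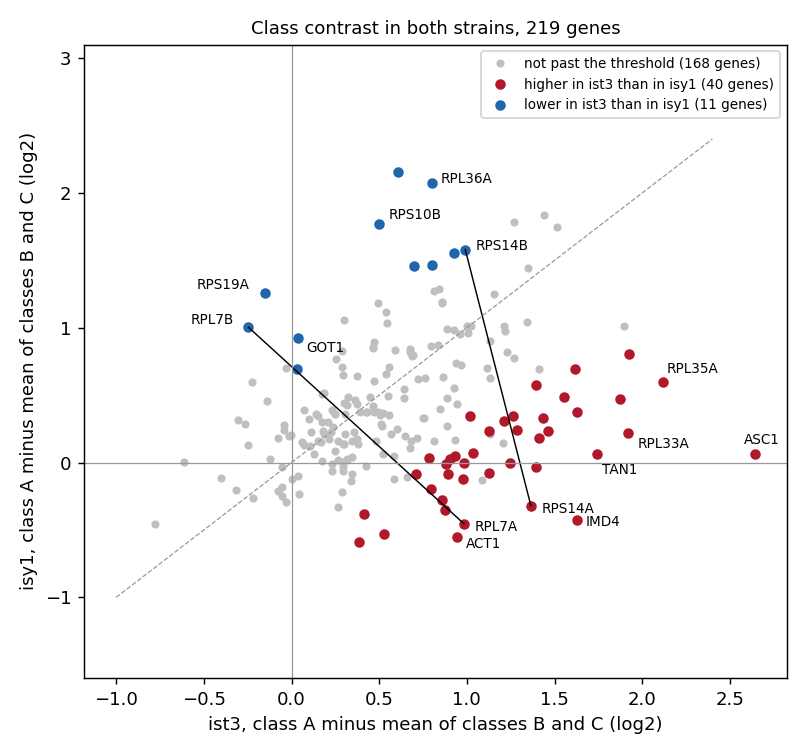
Class contrast (class A minus the mean of classes B and C, log2) of 219 genes in ist3 (horizontal axis) and isy1 (vertical axis), with genes whose difference was called marked by direction. The 40 genes higher in ist3 lie below the dashed line of equal values, the 11 genes lower in ist3 lie above it, and lines join the copies of RPS14 and RPL7.

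The probes behind the 40 higher and the 11 lower contrasts are given as a description, since the genes were chosen by the contrast itself. In all 40 higher genes the class A difference was above 0, and in 30 of them the class A probe itself was called higher in ist3 by the probe-level test, where 166 of 1456 probes were called (11.4%), 102 higher (7.01%) and 64 lower (4.4%). Their median class A ratio was 1.01 in ist3 and -0.04 in isy1, whereas classes B and C differed by medians of -0.12 and -0.21. In these 40 genes 1 class B and 4 class C probes were called lower, among them the class C probe of TAN1. In the 11 lower genes no class A probe was called lower, and 1 was called higher. In 9 of the 11 a class B or C probe was called higher in ist3, with median class B ratios of -0.38 in ist3 and -1.28 in isy1. Their median class C ratios were -0.43 in ist3 and -1.09 in isy1.

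ASC1, which encodes a ribosome-associated protein and carries a snoRNA in its intron, had the highest difference in contrast. Its contrast was 2.56 and 2.72 in ist3, against -0.36 and 0.48 in isy1, a difference of 2.58 ± 0.28 (SE, n = 2 arrays each, adjusted p = 3.01e-06). The class A probe of ASC1 read 2.24 and 2.62 in ist3, against -0.60 and -0.37 in isy1. Both ist3 arrays were far above both isy1 arrays on that probe, which differed by 2.91 (adjusted p = 3.27e-08).

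IMD4, an inosine monophosphate dehydrogenase gene that also hosts an intronic snoRNA, had contrasts of 2.12 and 1.13 in ist3, against -0.54 and -0.32 in isy1, a difference of 2.06 (adjusted p = 2.1e-05). Ribosomal protein genes came next. RPL33A had contrasts of 1.46 and 2.39 in ist3, against -0.18 and 0.61 in isy1. RPS14A had 0.89 and 1.84 in ist3, against -0.67 and 0.03 in isy1, and RPL35A had 1.56 and 2.68 in ist3, against 0.45 and 0.74 in isy1. In each of the 3 genes both ist3 arrays exceeded both isy1 arrays, with differences of 1.71, 1.68 and 1.53.

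TAN1, which encodes a protein needed for tRNA acetylation at cytidine, differed mainly on another probe. Its contrast was 1.46 and 2.02 in ist3, against 0.15 and -0.02 in isy1, a difference of 1.68 (adjusted p = 0.000848). Its class C probe read -2.73 and -1.21 in ist3, against -0.65 and 0.38 in isy1, and was called lower in ist3 (difference -1.83, adjusted p = 0.00067), whereas its class A probe was not called (adjusted p = 0.151). All 6 of these contrasts stayed called when any 1 of the 4 arrays was left out.

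**Figure D4:**
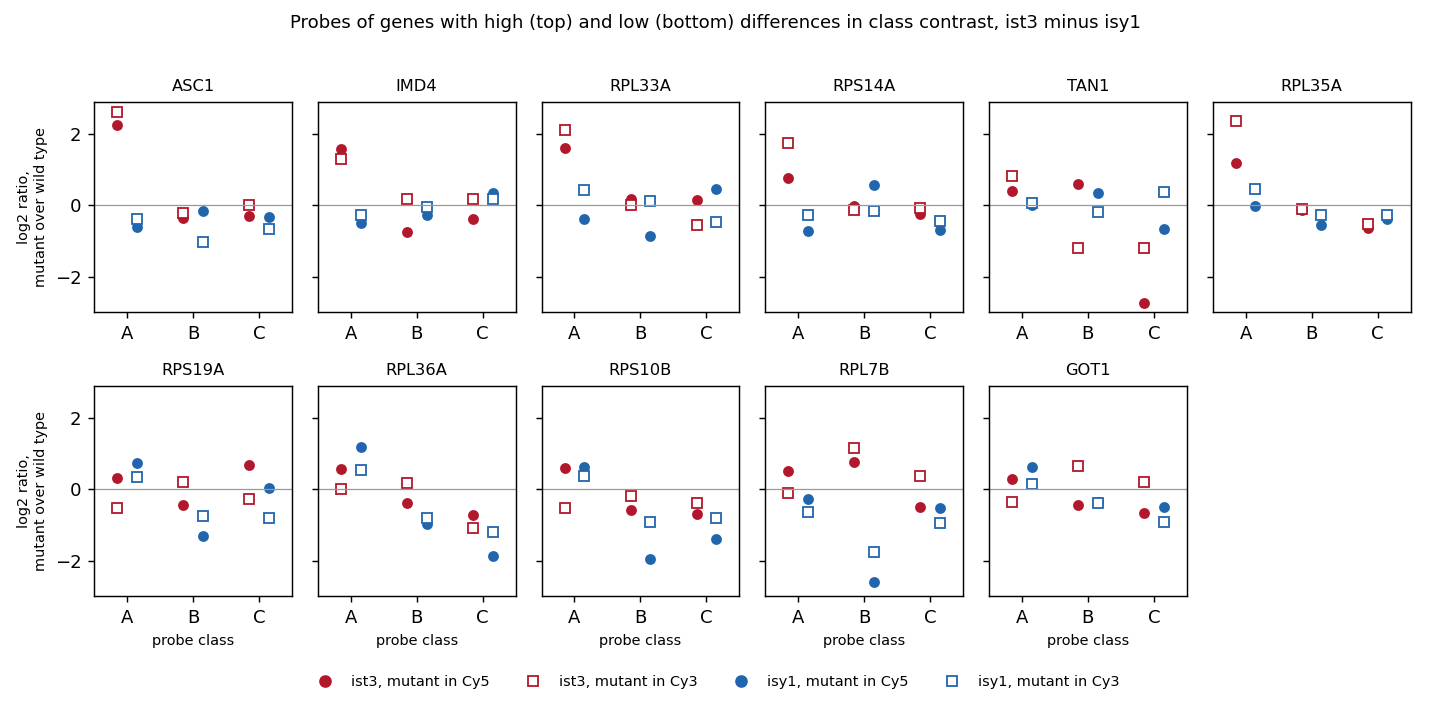
Log2 ratio to wild type of the class A, B and C probes on each ist3 and isy1 array for genes with high (top row) and low (bottom row) differences in class contrast. In ASC1 and IMD4 class A lies above 1 on the ist3 arrays and below 0 on the isy1 arrays, and in RPL7B class B lies above 0 on the ist3 arrays and below -1 on the isy1 arrays.

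Low differences in contrast belonged to ribosomal protein genes too. RPS19A had contrasts of 0.20 and -0.50 in ist3, against 1.39 and 1.13 in isy1 (difference -1.41, adjusted p = 0.000521). RPL36A had 1.13 and 0.46 in ist3, against 2.61 and 1.54 in isy1 (difference -1.28, adjusted p = 0.00101). RPL7B had 0.38 and -0.87 in ist3, against 1.295 and 0.71 in isy1 (difference -1.25, adjusted p = 0.00112). In these 3 genes all isy1 values lay above all ist3 values. For RPL7B the class B probe carried the gap, at 0.78 and 1.17 in ist3 against -2.60 and -1.74 in isy1, a probe difference of 3.14 (adjusted p = 7.79e-06).

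RPS10B (difference -1.27, adjusted p = 0.0107) and GOT1, which encodes a Golgi transport protein (difference -0.89, adjusted p = 0.0253), were also among the 6 lowest. In both the arrays of the strains overlapped, and both lost their call without ist3 replicate 2 or isy1 replicate 2.

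Many yeast ribosomal proteins are encoded by a pair of gene copies, which were compared one by one. In 36 pairs with both copies measured by class, 4 pairs had both copies called, and in 3 of these the copies went opposite ways, as in RPS14 and RPL7. For RPS14, RPS14A was higher by 1.68 and RPS14B lower, with contrasts of 0.84 and 1.14 in ist3, against 1.37 and 1.79 in isy1 (difference -0.59, adjusted p = 0.0297), a call that was lost when any 1 of the 4 arrays was left out. For RPL7, RPL7A had 1.73 and 0.24 in ist3, against -0.16 and -0.75 in isy1, a difference of 1.44 (adjusted p = 0.00101), beside the -1.25 of RPL7B.

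In another pair, RPL17A and RPL17B were both higher, by 1.23 and 1.43, and both lost their call without ist3 replicate 1 or isy1 replicate 2. Over the 36 pairs the copies named A gave 14 higher and 2 lower, and the copies named B gave 4 higher and 5 lower. Over all 219 contrasts 18.3% were higher and 5.02% lower. Whether the A and B copies differ as groups was not tested. One copy alone was called in 17 pairs. Near-identical copies can share signal on such probes, so the split within a pair is uncertain. The genes named in these pairs were chosen as pairs after their values were seen.

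By family, the contrast was higher in ist3 in 15 of 50 large-subunit ribosomal protein genes and lower in 3, with a median difference of 0.17, against 0.13 over all 219, where 18.3% were higher and 5.02% lower. Without isy1 replicate 2 these became 6 higher and 2 lower, and without ist3 replicate 1 they became 6 higher and 5 lower. Among 39 small-subunit genes 7 were higher and 7 lower (median 0.01), which became 3 higher and 4 lower without ist3 replicate 1, 5 and 3 without ist3 replicate 2, 7 and 4 without isy1 replicate 1, and 3 and 5 without isy1 replicate 2. The 130 other genes gave 18 higher and 1 lower (median 0.15). All 8 intron-containing snoRNA host genes of the list had a contrast, of which 3 were higher and 2 lower. The 11 meiotic genes and the 7 ubiquitin-conjugating genes gave 0 calls by limma, and 0 of them had an unadjusted p under 0.05. Among 12 genes of transport between the ER and the Golgi 3 were higher and 1 was lower. None of these 4 was called without isy1 replicate 2, and without ist3 replicate 2 the list had 1 higher and 0 lower.

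Of the 6 actin and tubulin genes 3 were higher and none lower, beside 18.3% higher and 5.02% lower over all contrasts. COF1 lost its call without 3 of the 4 arrays and ARP2 without ist3 replicate 1 or isy1 replicate 2, so that 1 was left without either of the last 2 arrays and 2 without ist3 replicate 2. ACT1, the actin gene, had contrasts of 1.01 and 0.87 in ist3, against -0.74 and -0.37 in isy1, a difference of 1.50 (adjusted p = 0.000314). STO1, which encodes the large subunit of the nuclear cap-binding complex, had 1.88 and 1.87 in ist3, against 0.76 and 0.19 in isy1, a difference of 1.40 (adjusted p = 0.00233). SEC14, a phosphatidylinositol transfer protein gene, had 0.99 and 1.50 in ist3, against -0.13 and 0.12 in isy1, a difference of 1.25 (adjusted p = 0.00153). In each of the 3 genes the arrays of the strains did not overlap. STO1 and SEC14 lost their call without isy1 replicate 2, ACT1 kept it whichever array was left out, and all 3 were chosen after their values were seen.

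Averaged over all probes, the called ribosomal protein genes were higher in ist3, except RPP2B, which was lower. Among 53 small-subunit genes 8 were higher and 0 lower, with a median of 0.30, and 46 of the 53 lay above 0. Over all genes 4.79% were higher and 6.21% lower, with a median of -0.02. Among 72 large-subunit genes 15 were higher and 1 lower, with a median of 0.20, and 54 lay above 0. The median of these large-subunit genes was 0.07 in ist3 and -0.12 in isy1, and that of the small-subunit genes was 0.09 in ist3 and -0.19 in isy1. Of the calls, only those higher in ist3 are counted in the rest of this paragraph. Without isy1 replicate 1 the calls fell to 5 small-subunit and 4 large-subunit genes, and without ist3 replicate 1 to 5 and 7. Small-subunit calls were also 5 without ist3 replicate 2. Without class A probes the calls were 11 small-subunit and 8 large-subunit genes (medians 0.24 and 0.15), and with a median over the probes of a gene they were 5 and 6. Without the dye term they were 1 and 4.

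RPL7B was the ribosomal protein gene furthest apart, at 0.27 and 0.49 in ist3, against -1.13 and -1.11 in isy1. The 2 isy1 arrays agreed closely and lay below both ist3 arrays, and the difference was 1.50 ± 0.12 (SE, n = 2 arrays each, adjusted p = 1.16e-07). RPL20B read 0.80 and 0.57 in ist3, against -0.86 and -0.13 in isy1 (difference 1.18, adjusted p = 0.00054). RPS21A read -0.04 and 0.78 in ist3, against -0.90 and -0.46 in isy1 (difference 1.06, adjusted p = 0.000182). RPS9A, a small-subunit gene, read 0.71 and 0.70 in ist3, against -0.20 and -0.41 in isy1 (difference 1.01, adjusted p = 1.84e-05). In these 3 genes, too, the strains did not overlap.

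ASC1 read 0.53 and 0.81 in ist3, against -0.36 and -0.69 in isy1, as a mean over its probes. The lower large-subunit gene was RPP2B, which encodes a stalk protein, at -0.68 (adjusted p = 0.00389), not called without ist3 replicate 1. Beside 4.79% higher and 6.21% lower over all genes, 3 of 41 ribosome biogenesis genes were higher and none lower. Their median was 0.29, against -0.02 over all genes, and their called share was not above the 11% over all genes. The higher ones included ROK1, an rRNA-processing helicase gene, at 0.91 (adjusted p = 0.0199), and NIP7, a 60S assembly factor gene, at 0.81 (adjusted p = 0.0447). No ribosome biogenesis gene was called without ist3 replicate 1 or isy1 replicate 1.

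Nuclear tRNA genes went the other way. None of the 40 was higher in ist3 and 16 were lower, with a median difference of -0.55, against -0.02 over all genes, and 30 of the 40 lay below 0. Over all genes 4.79% were higher and 6.21% lower. Their median log2 ratio was -0.19 in ist3, where 3 were called down from wild type. It was 0.31 in isy1, where 16 were called up and 1 down. Against wild type 2.85% of all genes were down in ist3, and 6.21% were up and 3.46% down in isy1. Array by array the median was -0.20 and -0.02 in ist3, against 0.62 and 0.21 in isy1, and in the other 12 conditions it lay between -0.23 and 0.18. Without isy1 replicate 1 the lower calls were 8, and without ist3 replicate 2 they were 10. Without ist3 replicate 1 there were 13 lower and 1 higher, and without the dye term 9 lower. Nearly all tRNA genes carry 1 probe, and sequence copies of a tRNA can share signal.

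SUP16, a serine tRNA gene, read -0.41 and -0.37 in ist3, against 1.59 and 1.10 in isy1, a difference of -1.73 ± 0.20 (adjusted p = 6.76e-06). YNCB0018W read -0.97 and 0.00 in ist3, against 1.35 and 1.59 in isy1 (difference -1.96, adjusted p = 0.000148). YNCE0023W read -0.29 and -0.50 in ist3, against 1.37 and 0.84 in isy1 (difference -1.50, adjusted p = 2.97e-07). In each of the 3 the isy1 arrays lay above 0 and the ist3 arrays at or below it. YNCF0009C read -0.44 and -0.61 in ist3, against 1.22 and 0.53 in isy1 (difference -1.40, adjusted p = 0.000229). YNCG0009C read -0.21 and -0.27 in ist3, against 1.25 and 0.98 in isy1 (difference -1.35, adjusted p = 7.06e-06). All 5 stayed called when any 1 of the 4 arrays was left out.

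**Figure D5:**
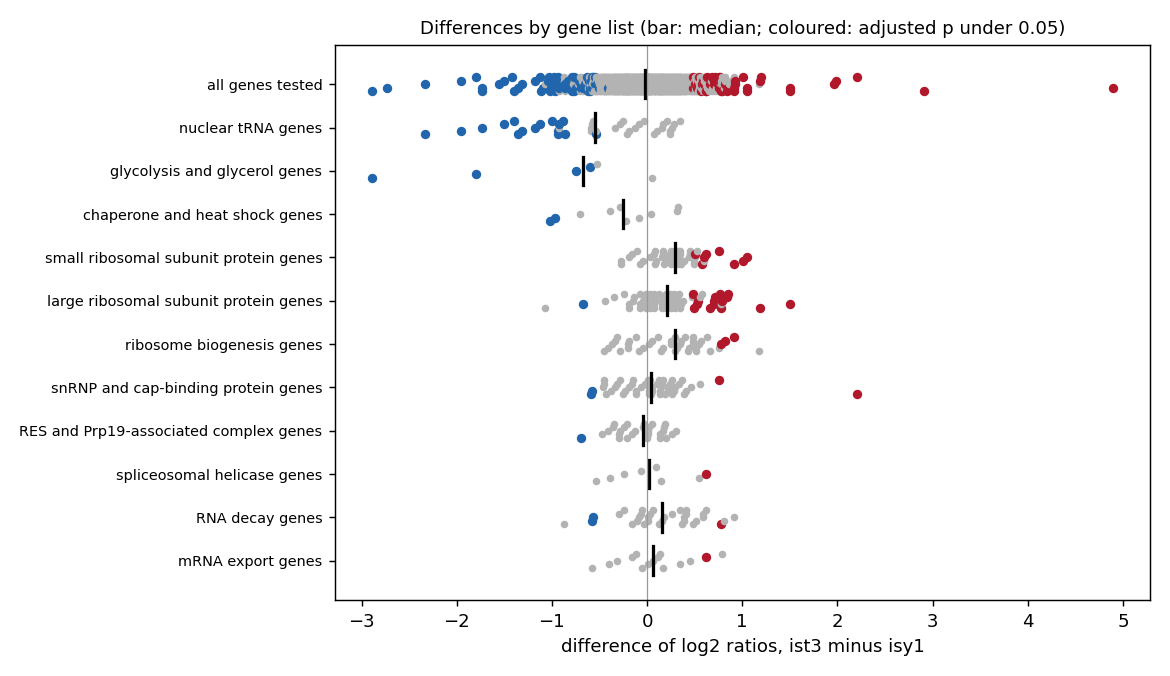
Difference in log2 ratio, ist3 minus isy1, for the measured members of the gene lists, one point per gene, with the median of each list marked. Nuclear tRNA genes centre at -0.55, and the small-subunit and large-subunit ribosomal protein genes at 0.30 and 0.20.

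Genes of sugar metabolism and the gene of a transcription factor for them were lower in ist3. Of 6 measured glycolysis and glycerol genes 4 were lower, beside 6.21% lower over all genes, with a median of -0.67. This list, too, was chosen with earlier results of these data known, so its share only describes the listed genes. Besides TDH1 they included PGK1, which encodes phosphoglycerate kinase, with -0.69 and -0.29 in ist3, against 0.18 and 0.34 in isy1 (difference -0.75, adjusted p = 0.00501). GPD1, which encodes a glycerol-3-phosphate dehydrogenase, read -0.70 and -0.95 in ist3, against -0.29 and -0.16 in isy1 (difference -0.60, adjusted p = 0.00451). TYE7, that transcription factor gene, read -0.22 and -0.93 in ist3, against 1.31 and 1.14 in isy1 (difference -1.80, adjusted p = 1.73e-05). In all of these the strains did not overlap. PGK1 lost its call without ist3 replicate 1, and GPD1 without replicate 2 of either strain.

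Of 10 chaperone genes 2 were lower, beside 6.21% lower over all genes, and both encode cytosolic Hsp70 proteins. SSA1 read -0.12 and 0.09 in ist3, against 0.77 and 1.24 in isy1, a difference of -1.02 (adjusted p = 0.00814). SSA2 read 0.03 and 0.36 in ist3, against 1.03 and 1.29 in isy1, a difference of -0.96 (adjusted p = 0.00669). Both gaps were without overlap, and neither gene was called without ist3 replicate 1 or isy1 replicate 2.

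Single genes outside these groups were also far apart. GTS1, which encodes a protein linked to ultradian rhythm, was up in both strains, at 0.85 and 0.86 in ist3, against 3.21 and 1.61 in isy1. Its difference was -1.55 ± 0.33 (adjusted p = 0.00421), lost without replicate 1 of either strain. SRD1, a gene linked to pre-rRNA processing, read -0.14 and -0.70 in ist3, against 1.17 and 0.83 in isy1 (difference -1.42, adjusted p = 1.44e-05). HTA1, which encodes histone H2A, read 0.25 and 0.38 in ist3, against -1.46 and -0.91 in isy1, a difference of 1.50 ± 0.30 (adjusted p = 0.00342). HTA1 ranged from -0.12 to 0.60 in the other 12 conditions, so its isy1 values lay below that range.

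SHP1, a cofactor gene of the Cdc48 ATPase, read -0.02 and 0.90 in ist3, against -1.04 and -0.19 in isy1. The arrays did not overlap, but the difference of 1.05 ± 0.29 (adjusted p = 0.0199) was not called once an array was left out, whichever of the 4 it was. GCN4, the transcription factor gene of the amino acid starvation response, read -0.28 and -0.30 in ist3, against 1.004 and 0.28 in isy1 (difference -0.93, adjusted p = 0.00342), and lost its call without isy1 replicate 1.

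Mating-type genes separated the strains as well. Haploid yeast cells are of the alpha or the a type, and each type transcribes its own pheromone and receptor genes under the mating-type locus. All 3 measured alpha-specific genes were higher in ist3, and both measured a-specific genes were lower, beside 4.79% higher and 6.21% lower over all genes. STE3, the a-factor receptor gene of alpha cells, read 2.59 and 1.87 in ist3, against 0.25 and 0.25 in isy1 (difference 1.98 ± 0.26, adjusted p = 3.37e-05). MF(ALPHA)2, the second alpha-factor gene, read 2.98 and 0.82 in ist3, against 0.38 and -0.49 in isy1 (difference 1.96, adjusted p = 0.00624), lost without replicate 1 of either strain. MFA2, an a-factor gene, read -2.65 and -1.55 in ist3, against 0.30 and 0.97 in isy1 (difference -2.73 ± 0.22, adjusted p = 1.16e-07). MFA1, the other a-factor gene, read -1.97 and -0.97 in ist3, against -0.09 and 0.61 in isy1 (difference -1.73 ± 0.32, adjusted p = 0.00144). In each of these the arrays of the strains stood apart. The pattern was not particular to ist3: the YPR045C strain had medians of 3.02 for the alpha-specific and -2.65 for the a-specific genes, beside 2.23 and -1.78 in ist3. The tgs1 and ynr004w strains had the reverse signs, with MF(ALPHA)1 as low as -5.04.

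Of 4 measured genes of the mating-type locus 1 was called, MATALPHA1, an activator of alpha-specific genes, with 3.01 and 3.49 in ist3, against 0.72 and -0.05 in isy1 (difference 2.91 ± 0.26, adjusted p = 2.97e-07). MATALPHA2 differed by 0.31 (adjusted p = 0.522) and HMRA1 by -0.35 (adjusted p = 0.326). Beside 4.79% higher and 6.21% lower over all genes, 3 of 8 pheromone response genes were higher, KAR4 (0.92), SST2 (0.92) and STE12 (0.77). STE7 was lower (-0.72). These 4 calls did not hold without every array: KAR4 was lost without replicate 1 of either strain, SST2 without isy1 replicate 2, STE12 in 3 of the 4 cases and STE7 in all 4. The part of cell type in the other differences between the strains was not tested. The mating lists hold 10 of the 108 called genes.

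Some genes were apart from wild type in both mutants. Against wild type, 15 genes were called in both. They are 19.7% of those called in ist3, beside 9.67% of all genes called in isy1. They are 15.8% of those called in isy1, beside 7.74% of all genes called in ist3. In 6 of the 15 the sign was the same: GTS1, NRD1 (a transcription termination factor gene), SBP1 (an mRNA-binding translation repressor gene), DBP2 (a helicase gene with an autoregulatory intron) and NOG2 (a 60S export GTPase gene) were up and RPS22B was down. NRD1 averaged 0.59 in ist3 and 0.65 in isy1, SBP1 0.44 in both, DBP2 0.41 and 0.30, NOG2 0.34 and 0.37, and RPS22B -0.92 and -1.20, with ist3 first in each pair. In the other 9 genes the signs were opposite: ASC1, RPL20B, RPL7B and RPS9A were up in ist3 and down in isy1, and MFA2, SRD1, TYE7, YNCE0023W and YNCF0009C were down in ist3 and up in isy1.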

How the data were processed

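The values are the log2 ratios of the series' value table as deposited, read as mutant over wild type. The sources used here do not state how the authors corrected background or normalized. Spots of a probe (6) and probes of a gene were averaged after each array was centred on its median; array medians lay between -0.03 and 0.03. Of 1536 probes, 1457 named 1 gene through the platform annotation, and 1456 had values on all 4 ist3 and isy1 arrays. limma 3.58.1 in R 4.3.3 was fitted to 28 arrays with 14 conditions and a dye term (13 residual degrees of freedom), 2-sided, with Benjamini-Hochberg adjustment at 0.05. The dye term pairs the arrays of equal orientation; replicate number and dye orientation are the same thing here. Since swapped arrays may hold the same RNA, p-values measure the spread between hybridisations. Probe classes came from the array layout, and which side of a linked pair is class A was set from the 24 arrays of other strains, a departure from the planned use of layout alone; 85.7 to 91.2% of genes shared the sign. Named genes were IST3 and ISY1, the 12 highest and 12 lowest called differences, up to 4 extreme members of each list, and the 6 highest and 6 lowest class contrasts. Listed aliases were matched to RefSeq symbols. Members and lists were chosen with earlier results of these data known. Some named genes are not reported here.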

Additional observations from a re-analysis of the deposited data

Results flagged for a closer look

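In 9 genes the strains were apart from wild type in opposite directions, with the difference itself called by limma. In each, the difference (ist3 minus isy1) is given first, then the ist3 mean and the isy1 mean, all as log2 ratios. ASC1 differed by 1.19 (0.67 in ist3 and -0.53 in isy1, adjusted p = 7.99e-06), RPL20B by 1.18 (0.69 in ist3 and -0.50 in isy1), RPL7B by 1.50 (0.38 in ist3 and -1.12 in isy1) and RPS9A by 1.01 (0.71 in ist3 and -0.31 in isy1). The remaining 5 were down in ist3 and up in isy1. MFA2 differed by -2.73 (-2.10 in ist3 and 0.63 in isy1), SRD1 by -1.42 (-0.42 in ist3 and 0.998 in isy1) and TYE7 by -1.80 (-0.57 in ist3 and 1.23 in isy1). The tRNA genes YNCE0023W and YNCF0009C differed by -1.50 (-0.40 in ist3 and 1.11 in isy1) and -1.40 (-0.53 in ist3 and 0.88 in isy1). With 2 arrays in each strain, no outlier test could be made.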

How the results depend on the processing

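The main counts were 108 genes, 166 probes and 51 class contrasts between the strains, and 76 (ist3) and 95 (isy1) genes against wild type. Without the dye term that acts as the replicate block, the counts in this order were 34, 32, 6, 10 and 37. Over pair means of 14 conditions they were 542, 692, 95, 554 and 414, and over the 12 log-phase arrays 34, 75, 24, 13 and 52. The 4 arrays alone gave 20 genes, 41 probes, 6 genes in ist3 and 27 in isy1. Scaling the arrays to one spread gave 26 class contrasts (17 higher and 9 lower) and 27 genes in ist3, and a median over probes gave 41 genes in ist3. Leaving out 1 array gave 57 to 85 genes, 99 to 119 probes, 21 to 43 class contrasts, and 21 to 76 (ist3) and 33 to 99 (isy1) genes against wild type. Centring on genes with 1 probe gave 70 higher and 48 lower genes, against 47 and 61. Chosen after seeing the data, class A minus C gave 23 and class C minus B 1 called contrast. Without class A probes, genes against wild type went from 48 up and 28 down to 23 up and 31 down in ist3. In isy1 they went from 61 up and 34 down to 63 up and 73 down. No call changed sign among the 102 named genes, of which 49 were called. Of these, 27 lost their call without the block. The cause of these shifts was not tested. Spots per probe and 2 arrays per strain limit the precision, and depth is not defined for arrays.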

Other observations

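Of the 108 genes that differed between the strains, 37 were in none of the lists, 8 higher in ist3 and 29 lower; those named here were chosen after their values were seen. Among the lower ones, MSN5, an export receptor gene, differed by -1.03 (limma adjusted p = 0.000148), GSP1 and GSP2, which encode the yeast Ran GTPases, by -0.69 and -0.79, and PSE1, an import receptor gene, by -0.62. MSN5 stayed called when any 1 of the 4 arrays was left out, GSP1 and GSP2 in 2 of the 4 cases and PSE1 in 0. Also lower were TOR2, a TOR kinase gene, at -0.998 (adjusted p = 0.000776), PPZ1, a phosphatase gene, at -0.83 (adjusted p = 0.00037) and GAC1, a regulatory subunit gene of the Glc7 phosphatase, at -1.09 (adjusted p = 0.0046). GLC7 itself was higher, at 0.68 (adjusted p = 0.00529), and was lost without replicate 2 of either strain, while GAC1 was lost without replicate 1 of either strain. IMD3, the paralog of IMD4, differed by -1.004 (adjusted p = 0.000148) as a gene mean. ESA1, the catalytic gene of the NuA4 acetyltransferase, was higher by 0.75 (adjusted p = 0.00246). TOR2, PPZ1, IMD3 and ESA1 stayed called when any 1 of the 4 arrays was left out.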
